A study of Mus musculus with 40 samples.

Results

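The miR-296 and miR-298 hairpins lie next to each other in the imprinted Gnas region of the mouse genome. Each gives 2 mature miRNAs, 1 from each arm, so that 4 of the 1978 mature miRNAs counted in these data are described here: mmu-miR-296-5p, mmu-miR-296-3p, mmu-miR-298-5p and mmu-miR-298-3p, written below without the species prefix. They were chosen by name, with earlier results of these data known, and each had 1 row in the count table. The libraries are small RNA from the hippocampal subregion CA1, 1 library per mouse, and the mice carried a CaMKIIδC transgene (TG), which produces heart failure, or were wild-type control (WT) littermates on a C57Bl/6J background. At 3 months of age there were 5 WT and 9 TG mice, and at 6 months 15 WT and 11 TG mice, with male and female mice in the study. Groups follow the sample titles, and the genotype field of 3-month WT mice 1 and 2 says TG instead. The study asked what changes in the hippocampus of TG mice between these ages.

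A miRNA hairpin is cut from a longer transcript and trimmed to a short duplex. One arm of the duplex is usually retained by an Argonaute protein, and bases 2 to 8 of the retained arm, the seed, pair with target mRNAs. In an imprinted region, a gene is transcribed mainly from the chromosome of 1 parent. The Gnas region makes several transcripts from alternative promoters, and the antisense RNA Nespas, made from the paternal chromosome, takes part in silencing one of them. In mice, miR-296 and miR-298 are known as products of the paternal chromosome. miR-296 has been studied in blood vessel growth and in the differentiation of embryonic stem cells. miR-298 has been studied as a repressor of Bace1, which encodes the β-secretase that cleaves the amyloid precursor protein. The counts do not separate the parental copies.

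The mature sequences are shown 5′ to 3′ with the seed in capitals, because the 4 arms share a locus but not a seed. They were taken from RefSeq (GRCm38.p6), where all 4 were found by name.

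miR-296-5p: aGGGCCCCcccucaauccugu
miR-296-3p: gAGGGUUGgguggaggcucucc
miR-298-5p: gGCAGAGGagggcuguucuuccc
miR-298-3p: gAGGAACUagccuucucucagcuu

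None of the 4 seeds occurred at bases 2 to 8 of another mature miRNA among the 1679 in the reference table, which is not complete. miR-296-5p holds a run of 7 C, and 2 of the 1679 mature miRNAs, itself included, have a run at least as long. G and C make up 66.7% of miR-296-5p, 68.2% of miR-296-3p and 65.2% of miR-298-5p, and the median of the reference miRNAs is 52.2%. miR-298-3p is at 50.0%. The hairpins follow with both mature arms in capitals, which shows how each pair is placed around its loop.

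Mir296 hairpin: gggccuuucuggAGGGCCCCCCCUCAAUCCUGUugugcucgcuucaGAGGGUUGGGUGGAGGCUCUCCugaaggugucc
Mir298 hairpin: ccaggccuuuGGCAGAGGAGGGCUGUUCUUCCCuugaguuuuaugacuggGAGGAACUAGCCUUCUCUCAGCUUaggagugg

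In GRCm38, which is the mm10 build of the study, the Mir296 hairpin (ENSMUSG00000065521) is at chr2:174267047-174267125 and the Mir298 hairpin (ENSMUSG00000065410) at chr2:174267504-174267585, both on the minus strand. They are 378 bases apart, and in the GENCODE annotation 0 other genes overlap the interval. The annotated end of Nespas, transcribed from the same strand, lies 13651 bases from Mir298, and the start of Gnas, on the plus strand, lies 16734 bases away. The hairpins are therefore intergenic in this annotation, past the annotated 3′ end of Nespas.

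The libraries held between 1926108 and 22892729 miRNA counts, and 3 counts corresponded to 0.101 to 1.91 counts per 1000000 (CPM, normalized between libraries with the TMM method of edgeR). These floors cover counting error only. The median total was 18431486 in TG mice at 3 months, 14340558 in WT mice at 3 months, 9239179 in TG mice at 6 months and 9893109 in WT mice at 6 months, so the older groups were sequenced less deeply. A set of 16 libraries had a TMM factor, a measure of library composition, of 0.719 to 0.933. The other 24 were at 0.968 to 1.30, with no wide gap between the sets. The 16 were TG mice 1, 2, 3 and 8 at 3 months, WT mice 1, 2, 3, 4, 5 and 9 at 6 months, and TG mice 1, 2, 3, 4, 8 and 9 at 6 months, with no 3-month WT mouse among them. Why their factors were lower was not tested, and the division at 0.95 was chosen after the data were seen. The fits of the 3 testable arms are also given in the 24 libraries of at least 0.95. For age in TG mice they are given in the libraries under 0.95 too.

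The arms of the locus were unequally abundant. miR-298-5p was the most abundant arm, with a mean of 16.7 CPM over the 40 libraries (rank 320 of 1978 mature miRNAs). miR-296-3p followed with 6.91 CPM (rank 396), miR-296-5p with 2.15 CPM (rank 503) and miR-298-3p with 0.176 CPM (rank 853). In total, 9555, 3703, 1430 and 93 reads were counted, in the same order. miR-298-5p had more reads than miR-298-3p in 40 of 40 libraries, and miR-296-3p had more reads than miR-296-5p in 40 of 40 libraries. The 5p arm thus led in one hairpin and the 3p arm in its neighbor. miR-298-5p also exceeded both miR-296 arms together in 39 of 40 libraries. Such differences between miRNAs also carry differences in how well each sequence is ligated and amplified.

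In 3-month WT mice 1 to 5, miR-298-5p was at 14.1, 23.3, 27.6, 34.2 and 16.8 CPM. In 3-month TG mice it ranged from 16.7 to 28.2 CPM with a median of 25.0. At 6 months it ranged from 4.95 to 23.5 CPM in WT mice (median 13.1) and from 3.39 to 19.2 CPM in TG mice (median 14.1). The genotypes overlapped at each age, with a wider spread in WT than in TG mice at 3 months, and the 6-month mice lay mostly below the 3-month mice, with overlap. The group means were 23.2 ± 8.13 (SD, n = 5) CPM in WT and 23.9 ± 3.93 (n = 9) in TG mice at 3 months, and 13.1 ± 4.03 (n = 15) in WT and 12.7 ± 4.36 (n = 11) in TG mice at 6 months.

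miR-296-3p showed the same order of groups by age. It was at 5.12, 6.13, 13.6, 11.3 and 8.21 CPM in 3-month WT mice 1 to 5 and ranged from 6.34 to 16.6 CPM (median 9.12) in 3-month TG mice. At 6 months the range was 3.22 to 11.0 CPM (median 5.16) in WT and 1.70 to 7.09 CPM (median 4.92) in TG mice. The highest values at 3 months belonged to TG mice 1 and 2, and 8 of the 9 TG mice of that age, all but mouse 8, were above every 6-month TG mouse. The means were 8.85 ± 3.53 (SD, n = 5), 10.5 ± 3.60 (n = 9), 5.39 ± 2.02 (n = 15) and 5.14 ± 1.63 (n = 11) CPM in 3-month WT, 3-month TG, 6-month WT and 6-month TG mice.

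miR-296-5p was at 1.71, 4.66, 3.42, 3.05 and 2.89 CPM in 3-month WT mice 1 to 5. In 3-month TG mice it ranged from 1.27 to 5.56 CPM (median 4.19), in 6-month WT mice from 0 to 3.02 CPM (median 1.49) and in 6-month TG mice from 0 to 2.66 CPM (median 1.32). It was at 0 counts in 3 libraries, all from 6-month mice. The 9 TG mice at 3 months fell into 2 sets, 5 mice between 4.19 and 5.56 CPM and 4 mice between 1.27 and 1.70 CPM, and the 4 are those with a TMM factor under 0.95. The means were 3.15 ± 1.06 (SD, n = 5) and 3.45 ± 1.91 (n = 9) CPM in WT and TG mice at 3 months, and 1.63 ± 1.02 (n = 15) and 1.36 ± 0.810 (n = 11) CPM at 6 months.

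miR-298-3p, the minor arm, was counted 0 to 8 times per library. It was at 0 in 11 libraries and at 3 counts or fewer in 29 of 40, and it passed the filter on low counts in 0 of 5 comparisons. Pooled over each group, 28 reads in 3-month WT mice corresponded to 0.413 reads per 1000000 counts and 26 reads in 3-month TG mice to 0.177. At 6 months, 29 reads in WT mice corresponded to 0.203 and 10 reads in TG mice to 0.0890. At 3 months 8 of 9 TG mice were below the lowest WT mouse, and 5 of the 9 TG libraries held 3 counts or fewer. That lowest mouse was WT mouse 1, at 0.244 CPM from 2 counts, whose genotype field says TG. Fitted in edgeR without the filter, this arm was called in 0 of 5 comparisons, and its other test is that of the arm ratio described below.

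**Figure D1:**
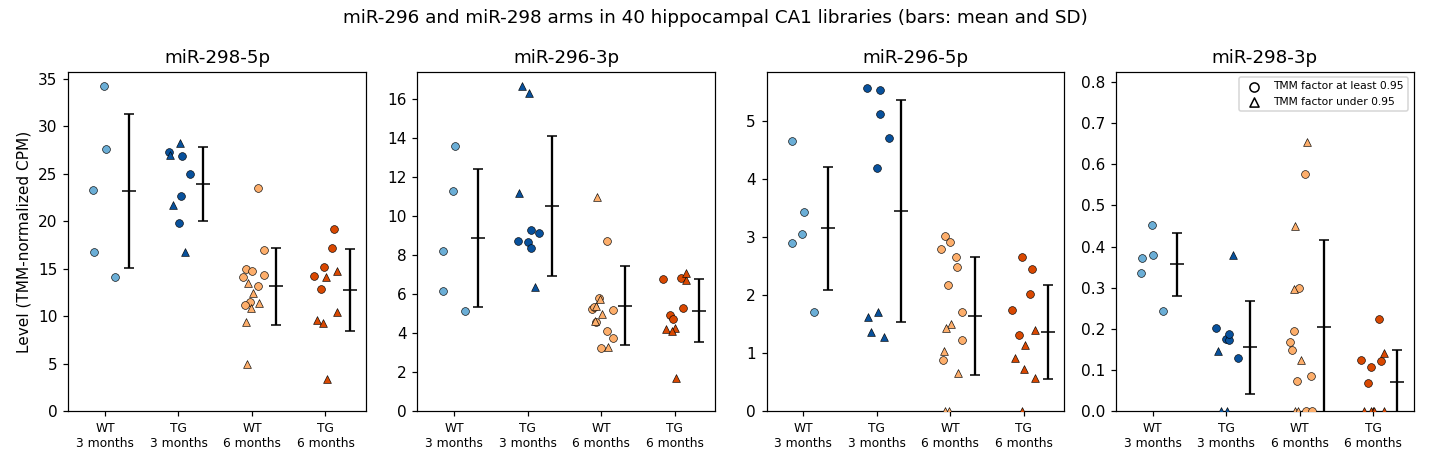
Levels of the 4 arms in TMM-normalized CPM (vertical axes, starting at 0), with 1 point per mouse in 4 groups and the mean and SD of each group as bars; triangles are libraries with a TMM factor under 0.95. The 6-month means of miR-298-5p (13.1 and 12.7 CPM) are below the 3-month means (23.2 and 23.9 CPM) in both genotypes, and the 4 triangles of 3-month TG mice form the low set of miR-296-5p.

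The first comparison was between 6-month and 3-month TG mice, which asks what changed with age in animals carrying the transgene. All 3 testable arms fell. miR-298-5p fell by 0.85 on the log2 scale (SE 0.19, adjusted p = 0.00373), which made it 1.81-fold higher at 3 months. miR-296-3p fell by 0.95 (SE 0.22, adjusted p = 0.00549), a level 1.93-fold higher at 3 months. miR-296-5p fell by 1.23 (SE 0.37, adjusted p = 0.0265), a level 2.34-fold higher at 3 months. In this comparison 15.7% of 629 tested miRNAs were called altered (adjusted p under 0.05 and absolute log2FC above 0.26), and 8.27% were called lower, with a median log2FC of -0.09 over all tested. Each of the 3 arms was below the 3-month mean in 11 of 11 6-month TG mice. The ranges still overlapped, with 9 of 11 mice below the lowest 3-month TG mouse for miR-298-5p, 7 of 11 for miR-296-3p and 5 of 11 for miR-296-5p. A lower level in tissue may come from fewer cells that make the miRNA or from less miRNA per cell, and bulk RNA cannot tell these apart.

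The call of miR-296-5p was less stable than those of the other 2 arms. It was lost without 3-month TG mouse 4, 6, 7 or 9, or without 6-month TG mouse 2, with an adjusted p of at most 0.0551 and a log2FC of -1.16 to -1.12. With the library size as a covariate its log2FC was -0.65 (adjusted p = 0.311), and 3-month TG mice had the highest median total. miR-296-3p and miR-298-5p stayed called without any 1 library and under all 12 other settings tried, with an adjusted p of at most 0.0203 and 0.0248 among the latter. Within the 10 TG libraries with a TMM factor of at least 0.95, the log2FC was -0.56 for miR-298-5p (adjusted p = 0.00724), -0.58 for miR-296-3p (adjusted p = 0.0143) and -1.22 for miR-296-5p (adjusted p = 0.000148), and 42.1% of miRNAs were called there. Within the 10 TG libraries under 0.95, it was -1.07 (adjusted p = 0.0198), -1.27 (adjusted p = 0.0198) and -0.87 (adjusted p = 0.214), and 7.48% were called.

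In WT mice the arms had lower mean levels at 6 months as well, and none passed the adjusted test. The log2FC was -0.77 for miR-298-5p (SE 0.22, p = 0.00171, adjusted p = 0.179), -0.69 for miR-296-3p (SE 0.26, p = 0.0158, adjusted p = 0.301) and -0.79 for miR-296-5p (SE 0.35, p = 0.0314, adjusted p = 0.301). All 3 unadjusted values were under 0.05, which 7.58% of 660 tested miRNAs were in the lower direction, and miR-298-5p ranked 4 of 660 by p. In this comparison edgeR called 0.152% of the miRNAs, 1 in number. The 15 WT mice of 6 months lay below the 3-month mean in 15 cases for miR-296-5p and in 14 cases for miR-296-3p and miR-298-5p. The 95% intervals of the log2FC were -1.23 to -0.32 for miR-298-5p, -1.23 to -0.14 for miR-296-3p and -1.51 to -0.08 for miR-296-5p. In the 14 WT libraries of at least 0.95, the log2FC was -0.61 for miR-298-5p (adjusted p = 0.121), -0.78 for miR-296-3p (adjusted p = 0.113) and -0.50 for miR-296-5p (adjusted p = 0.337).

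The call in WT mice depended on the tool. DESeq2 called miR-298-5p (log2FC -0.78, adjusted p = 0.0385) and 1.97% of all tested miRNAs. The study names DESeq2 together with RUVSeq, which removes variation that the groups do not explain. With 2 such factors DESeq2 called all 3 arms in WT mice, with log2FC values of -0.77 for miR-298-5p (adjusted p = 0.000407), -0.64 for miR-296-3p (adjusted p = 0.0254) and -0.97 for miR-296-5p (adjusted p = 0.000374), and called 31.5% of all tested miRNAs.

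The age step of the 2 genotypes was compared by the interaction of age and genotype, which asks whether the change in TG mice differs from that in WT mice. The interaction was -0.10 for miR-298-5p (SE 0.29, 95% interval -0.69 to 0.49), -0.28 for miR-296-3p (SE 0.34, -0.98 to 0.41) and -0.45 for miR-296-5p (SE 0.53, -1.52 to 0.63) on the log2 scale, with an adjusted p of 0.986 for each. edgeR called 0 of 699 miRNAs (0%), and 14 had an unadjusted p under 0.05 (2%), the arms not among them. In the libraries of at least 0.95 the interaction was 0.0042 for miR-298-5p (adjusted p = 0.991) and 0.17 for miR-296-3p (adjusted p = 0.752), and -0.76 for miR-296-5p (SE 0.34, p = 0.0333, adjusted p = 0.158 with edgeR). A call in TG mice and its absence in WT mice is therefore no measured difference between the genotypes for these arms, and intervals of this width leave room for unequal changes.

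TG and WT mice of the same age were compared next, which asks whether levels differed by genotype at 1 age. At 3 months the log2FC was 0.04 for miR-298-5p (SE 0.23, 95% interval -0.44 to 0.52), 0.23 for miR-296-3p (SE 0.29, -0.38 to 0.84) and 0.14 for miR-296-5p (SE 0.40, -0.71 to 1.00). At 6 months it was -0.02 (SE 0.17, -0.38 to 0.33), -0.01 (SE 0.20, -0.42 to 0.39) and -0.29 (SE 0.33, -0.96 to 0.38). The adjusted p was between 0.992 and 0.999 throughout. edgeR called 0 of 695 miRNAs at 3 months and 0 of 612 at 6 months (0% in both). An unadjusted p under 0.05 was reached by 7 (1.01%) and 3 (0.49%) miRNAs, and the arms were not among them. DESeq2 called none of the 3 arms either. At 3 months the sign turned for miR-296-3p (-0.09) and miR-298-5p (-0.14) without WT mice 1 and 2, whose labels disagree. In the 10 libraries of at least 0.95 at 3 months, the log2FC of miR-296-5p was 0.61 (SE 0.23, p = 0.0193, adjusted p = 0.135 with edgeR), and 4 of the 9 TG and 0 of the 5 WT mice of this age were left out there. miR-296-3p was then at -0.051 and miR-298-5p at 0.03 (adjusted p = 0.913 and 0.940). At 6 months the values in these libraries were 0.04 for miR-298-5p, 0.12 for miR-296-3p and -0.15 for miR-296-5p, each with an adjusted p of 0.997.

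**Figure D2:**
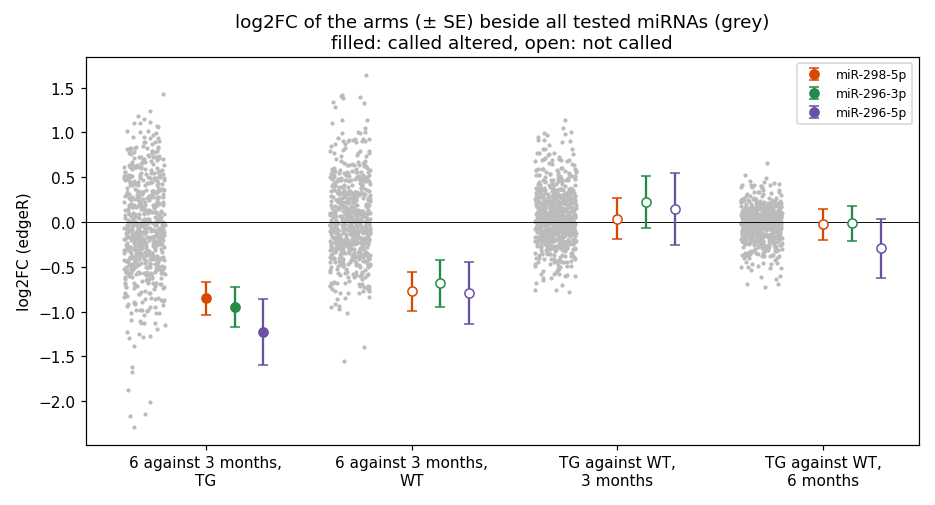
log2FC of the 3 testable arms with their SE (colored points, filled where called altered by edgeR) in the 4 comparisons named on the horizontal axis, beside all tested miRNAs (grey points). The arms are at -0.85 to -1.23 in the age comparison of TG mice, at -0.69 to -0.79 in that of WT mice, and between -0.29 and 0.23 in the comparisons of genotype.

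Ratios within a library were used to ask whether the arms or the hairpins shifted against each other. The locus ratio, the log2 of both miR-296 arms over both miR-298 arms, averaged -0.90 over the 40 libraries, with a range of -1.60 to 0. Its group means were -0.96 ± 0.28 (SD, n = 5) and -0.80 ± 0.28 (n = 9) in WT and TG mice at 3 months, and -0.91 ± 0.44 (n = 15) and -0.93 ± 0.38 (n = 11) at 6 months. The group means lay within 1 SD of each other. The age difference was -0.13 in TG mice (two-sided exact permutation p = 0.418) and 0.05 in WT mice (exact permutation p = 0.823), each with an adjusted p of 0.898 over the 12 ratio tests made.

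The ratio of miR-298-5p to miR-298-3p was higher in TG than in WT mice at 3 months, 7.26 ± 1.24 (SD, n = 9) against 5.82 ± 0.37 (n = 5) on the log2 scale. The difference of 1.43 had an exact permutation p of 0.0265 and an adjusted p of 0.318. With each library left out in turn, the adjusted p ranged from 0.0466 to 0.789 over 14 fits by the exact permutation test. The lowest came without 3-month TG mouse 8, with a difference of 1.68. This mouse had the highest miR-298-3p level of its group, 0.381 CPM from 3 counts. The ratio rests on the 0 to 8 counts of miR-298-3p, with 3 or fewer in 5 of 9 TG and 1 of 5 WT libraries. None of the other 11 ratio tests had an adjusted p under 0.898 with the pseudocount of 0.5. The age difference of the miR-298 arm ratio in TG mice was -0.75 (exact permutation p = 0.173). With a pseudocount of 2 it was -1.22 (exact permutation p = 0.00870, adjusted p = 0.104). Pooled over TG mice, 3977 reads of miR-298-5p stood beside 26 of miR-298-3p at 3 months, and 1566 beside 10 at 6 months. A pseudocount weighs more where counts are lower, and the 6-month libraries were less deep. The test therefore cannot separate a changed ratio from depth.

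The ratio of the miR-296 arms differed between libraries of different composition. Its group means were -1.46 ± 0.63 (SD, n = 5) and -1.76 ± 1.18 (n = 9) log2 in WT and TG mice at 3 months, and -1.92 ± 1.27 (n = 15) and -2.12 ± 1.27 (n = 11) at 6 months, with an adjusted p of 0.898 in each of the 4 comparisons by permutation. In the 24 libraries with a TMM factor of at least 0.95, 2.10 reads of miR-296-3p were counted per read of miR-296-5p. In the 16 libraries under 0.95, the number was 7.49. Within 3-month TG mice it was 1.75 in 5 libraries against 8.81 in 4, within 6-month WT mice 2.21 in 9 against 5.95 in 6, and within 6-month TG mice 2.56 in 5 against 7.03 in 6. The median of miR-296-5p was 2.73 CPM in the 24 and 1.08 CPM in the 16 libraries, and that of miR-296-3p was 5.95 and 5.57 CPM. These pooled medians mix groups of different level. Within 3-month TG mice the medians of the libraries under and of at least 0.95 were 1.49 and 5.12 CPM for miR-296-5p and 13.7 and 8.70 CPM for miR-296-3p. At 6 months they were 0.846 and 2.49 CPM for miR-296-5p and 5.18 and 5.16 CPM for miR-296-3p in WT mice, and 0.825 and 2.01 CPM and 4.23 and 5.26 CPM in TG mice. miR-296-5p had the lower median in the libraries under 0.95 in all 3 groups that hold both kinds. These values describe a division set after the data were seen and carry no test. The CPM are also divided by the TMM factor that sets the division, so a low factor raises them. Whether miR-296-3p was higher in the 3-month TG libraries under 0.95 without this scaling was not tested. The read ratios do not depend on the factor.

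**Figure D3:**
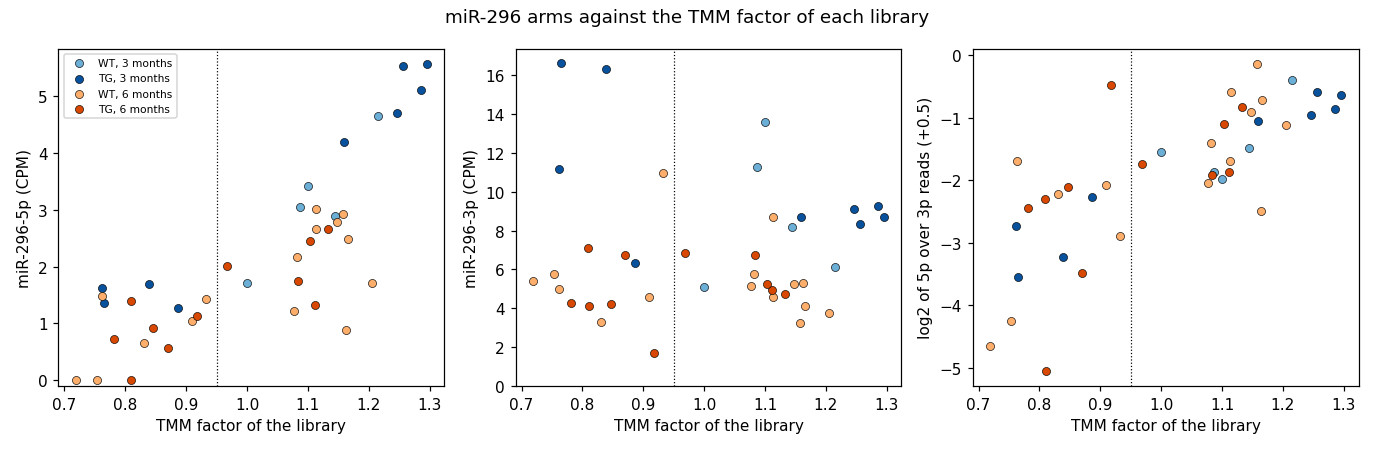
miR-296-5p and miR-296-3p in CPM and the log2 of their read ratio (vertical axes) against the TMM factor of each library (horizontal axes), 1 point per mouse, colored by group, with a dotted line at 0.95. miR-296-5p has a median of 1.08 CPM left of the line and 2.73 CPM right of it, and the medians of miR-296-3p are 5.57 and 5.95 CPM.

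Arms of a shared locus may vary together between mice, and this was examined on log2 CPM after removal of each group's mean. miR-296-3p and miR-298-5p, the leading arms of the 2 hairpins, were correlated over the 40 mice (Pearson r = 0.54, permutation p = 0.00214, adjusted over 6 pairs 0.0128). Spearman's rho was 0.42 (permutation p = 0.00969, adjusted 0.0291). Without the 2 mice farthest from the median of miR-296-3p, r was 0.38 (permutation p = 0.0234). Within groups r was 0.44 in 9 TG mice at 3 months, 0.16 in 15 WT mice and 0.83 in 11 TG mice at 6 months. The value of 0.83 includes TG mouse 9, the lowest of its group in both arms. Its library held 3 reads of miR-296-3p and 6 of miR-298-5p, and r in this group without it was not computed. By TMM factor, r was 0.63 in the 16 libraries under 0.95 and 0.56 in the other 24. After adjustment for library size it was 0.50 over all mice (permutation, adjusted p = 0.00870). The relation thus remained in both kinds of library, and was weakest in 6-month WT mice.

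miR-296-5p and miR-298-5p were correlated as well (r = 0.49, permutation p = 0.00573, adjusted 0.0172, and rho = 0.49, permutation p = 0.00088, adjusted 0.00528). Without the 2 mice farthest from the median of miR-296-5p, r was 0.37 (permutation p = 0.0706), beside 0.38 for miR-296-3p with miR-298-5p. Both values were thus lower without the mice left out. Leaving out the extremes of 1 arm narrows its range, so this cannot tell whether the relations rest on particular mice. For miR-296-5p with miR-298-5p, r was -0.07 after adjustment for library size. After adjustment for the TMM factor it was 0.34 (permutation, adjusted p = 0.169). Within the libraries under and above 0.95 r was 0.22 and 0.47. The 2 arms of the miR-296 hairpin were not correlated with each other (r = -0.01, permutation p = 0.964, and rho = -0.06, permutation p = 0.731). The pairs with miR-298-3p had r between -0.11 and 0.14, at an adjusted p of 0.644 by permutation. Within groups their r differed widely, on 0 to 8 counts of miR-298-3p per library. In 9 TG mice at 3 months it was -0.97 with miR-296-3p, -0.45 with miR-298-5p and 0.30 with miR-296-5p. In 11 TG mice at 6 months it was 0.56, 0.66 and 0.50, and in 15 WT mice of that age -0.23, -0.15 and -0.04. These within-group values were not tested.

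**Figure D4:**
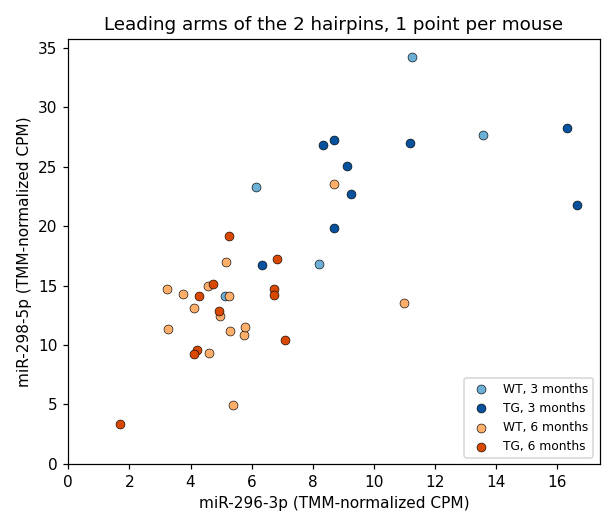
miR-298-5p (vertical axis) against miR-296-3p (horizontal axis), both in TMM-normalized CPM, 1 point per mouse colored by group. Most 3-month mice lie toward the upper right and most 6-month mice toward the lower left, with overlap, and with group means removed the log2 values have r = 0.54.

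The miRNAs whose level followed miR-298-5p most closely across the 40 mice, with group means removed and among the 361 that averaged 10 CPM or more, were miR-7b-5p (r = 0.81), miR-433-3p (r = 0.81) and miR-421-3p (r = 0.75). The median r of the 361 was 0.18, and the values share library depth and scaling. miR-7b-5p belongs to the miR-7 family, known from neuroendocrine cells. miR-433-3p comes from the imprinted Dlk1-Dio3 region, and miR-421-3p from the X chromosome. miR-7b-5p fell by 0.54 between 3 and 6 months in TG mice (SE 0.17, adjusted p = 0.0387), and its log2FC in WT mice was -0.44 (SE 0.16, adjusted p = 0.278). miR-433-3p had a log2FC of -0.36 (adjusted p = 0.0990) in TG and -0.48 (adjusted p = 0.301) in WT mice, and miR-421-3p of -0.10 (adjusted p = 0.805) and -0.19 (adjusted p = 0.747).

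Other miRNAs of imprinted genes were looked up to place the locus. From the Mest, Igf2 and H19 genes, miR-335, miR-483 and miR-675 were in the counts with 6 arms, of which 3 or 4 passed the filter in a comparison. edgeR called 0 of those tested, 0 of 3 in the age comparison of TG mice, where 15.7% of all tested miRNAs were called. In TG mice miR-335-5p had a log2FC of -0.23 between 3 and 6 months (SE 0.41, adjusted p = 0.706), miR-335-3p of -0.10 (SE 0.14, adjusted p = 0.628) and miR-483-3p of -0.30 (SE 0.34, adjusted p = 0.556). miR-675-3p was at 0 in every library. Of 59 tested miRNAs of the maternally expressed Mirg cluster in the Dlk1-Dio3 region, 5 rose and 3 fell in TG mice between 3 and 6 months, with a list median of 0.09, beside 15.7% called and a median of -0.09 over all 629. Among those that rose were miR-495-3p (log2FC 1.01, adjusted p = 0.000292), miR-758-3p (0.99, adjusted p = 0.00130), miR-369-5p (0.79, adjusted p = 0.00103) and miR-543-3p (0.75, adjusted p = 0.00728). None of the Mirg cluster was called in the other 4 comparisons.

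The 7 miRNAs known from neurons, which a hippocampal sample should hold, were all detected in every library. Single markers of other cell types and tissues were also called in the comparison in which the arms fell, beside 15.7% of all tested miRNAs. Between 3 and 6 months in TG mice, 2 of 2 choroid plexus miRNAs rose, miR-204-5p (log2FC 0.89, adjusted p = 0.000602) and miR-211-5p (1.07, adjusted p = 0.00103), and their summed level ranged from 308 to 751 CPM at 3 months and from 627 to 1027 CPM at 6 months. Of 3 oligodendrocyte miRNAs 2 fell, miR-219a-2-3p (-0.57, adjusted p = 0.0119) and miR-338-3p (-1.02, adjusted p = 0.0157), with summed ranges of 1216 to 2453 and 805 to 1338 CPM. Of 4 vessel miRNAs 1 rose, miR-126a-3p (0.73, adjusted p = 0.00146), of 7 neuronal miRNAs 1 rose, miR-128-3p (0.73, adjusted p = 0.0210), with a median log2FC of -0.16 over the 7, and of 3 blood miRNAs miR-451a rose (0.68, adjusted p = 0.00670) and miR-144-3p fell (-0.98, adjusted p = 0.0335). Of 3 muscle miRNAs 1 fell, miR-1a-3p (-0.80, adjusted p = 0.0136), and of 4 tested epithelial miRNAs 1 fell, miR-200c-3p (-0.71, adjusted p = 0.0425). The lists of microglia and leukocytes (4 miRNAs), endocrine cells (2) and liver (1) had 0 calls, and 0 members of these cell type lists were called in the other 4 comparisons. No cell type marker was at 0 in every library. The part of these marker values in the fall of the miR-296 and miR-298 arms was not tested.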

How the data were processed

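Per the paper and the submitters' processing notes, the authors trimmed adapters with cutadapt, aligned the reads with mirdeep2 to mm10 and miRBase, and deposited raw counts per pair of mature miRNA and precursor (2128 pairs) without pooling replicates. A second deposited table of scaled values was not used. The 52 spike-in rows, at most 0.252% of a library, were left out. Each miRNA was represented by its precursor row with the highest total.

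Every comparison was fitted on all miRNAs of its groups in edgeR (version 4.0.16, R 4.3.3), with filterByExpr (minimum count 10, total 15), TMM normalization, robust quasi-likelihood F tests and Benjamini-Hochberg adjustment, and the scripts were tested on simulated data. SE is the absolute log2FC over the root of F. Ratios used a pseudocount of 0.5 and two-sided permutation tests, exact where a group held under 10 mice and otherwise with 100000 resamples (scipy 1.17.1). Correlations used log2 CPM with a prior count of 2 and permutations within groups. Alternatives were DESeq2 (version 1.42.0), 2 RUVr factors, other scaling, no filter, a joint fit and a replicate block. Others were a different handling of the mice whose labels disagree, and each library left out. Covariates and subsets for composition and depth were chosen after seeing the data.

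The members and lists were chosen with earlier results of these data known. Named miRNAs were the members, the 3 most similar to a member averaging 10 CPM, and up to 4 called per list (imprinted genes, the Mirg cluster, neurons, oligodendrocytes, blood, choroid plexus, vessels, microglia and leukocytes, epithelium, muscle, endocrine cells, liver). miR-335-5p, miR-335-3p, miR-483-3p and miR-675-3p were named after their values were seen.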

Additional observations from a re-analysis of the deposited data

How the results depend on the processing

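miR-296-3p and miR-298-5p kept their call between 3 and 6 months in TG mice under all 12 alternatives and without any 1 library. miR-296-5p lost it as described above. Counts of called miRNAs moved more. In TG mice between the ages they were 322 with 2 RUVr factors, 191 with the TMM factor as a covariate, 292 in libraries with a TMM factor of at least 0.95 and 43 in those under it, against 99. In WT mice they were 13 with DESeq2, 208 with RUVr, 2 with the TMM covariate, 0 with library size as a covariate and 2 in libraries of at least 0.95, against 1, and DESeq2 called 1 arm and DESeq2 with RUVr 3 arms. With RUVr, 46 miRNAs were called between genotypes at 3 months, 5 at 6 months and 3 in the interaction, and 2 in the interaction in libraries of at least 0.95. The fits under 0.95 were not run for age in WT mice, genotype at 3 months and the interaction, because 0 WT libraries of 3 months were there. Causes were not tested.

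Uncalled log2FC values, ratios and values of r changed sign, except where a kept sign is stated. Between genotypes at 3 months, miR-296-5p was at -0.31 and miR-298-5p at -0.024 with library size as a covariate. miR-296-3p was at -0.091 without WT mice 1 and 2, -0.18 with them counted as TG and -0.051 in libraries of at least 0.95, and miR-298-5p at -0.14 and -0.16 in the first and second of these. At 6 months miR-296-3p was at 0.12 in libraries of at least 0.95 and 0.044 without the 3 libraries under 4000000 counts, and miR-298-5p was at 0.066 with the TMM covariate and 0.044 in libraries of at least 0.95. In libraries of at least 0.95, miR-296-5p kept its sign, at 0.61 by genotype at 3 months and -0.76 in the interaction. The interaction without WT mice 1 and 2, with them as TG and in libraries of at least 0.95 was 0.018, 0.15 and 0.17 for miR-296-3p and 0.064, 0.13 and 0.0042 for miR-298-5p. With a pseudocount of 2, the miR-298 arm ratio by age was -0.48 in WT mice and, with its sign kept, -1.22 in TG mice. These values depend on depth as stated above. In libraries of at least 0.95, the miR-296 arm ratio was 0.22 by age in WT mice and 0.64 by genotype at 3 months, and the locus ratio -0.079 by age in WT mice and 0.015 by genotype at 6 months. Adjusted for library size, r was -0.066 for miR-296-5p with miR-298-5p and -0.0096 for the miR-298 arms. Adjusted for the TMM factor, it was 0.18 for the miR-296 arms and, with its sign kept, 0.34 for miR-296-5p with miR-298-5p.

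Without 1 library at a time, 0 to 4 miRNAs were called by age in WT mice. Ranges that crossed zero were -0.088 to 0.24 for miR-298-5p by genotype at 3 months, -0.084 to 0.10 for miR-296-3p and -0.087 to 0.052 for miR-298-5p at 6 months, -0.27 to 0.021 for miR-298-5p in the interaction, -0.0014 to 0.40 for the miR-298 arm ratio and -0.028 to 0.13 for the locus ratio by age in WT mice, and -0.39 to 0.10 for the miR-296 arm ratio and -0.085 to 0.049 for the locus ratio by genotype at 6 months. The miR-298 arm ratio by genotype at 3 months ranged from 1.13 to 1.68.

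In the labels, mice with the same number share only a number. Mice 1, 2 and 3 had a TMM factor under 0.95 in every group that holds such libraries, and why was not tested. Of 9 numbers shared by the TG groups, 7 had correlated deviations above 0.1, with a lowest r of -0.53, and 2 of 5 in the WT groups, with a mean r of 0.035. Between genotypes it was 9 of 11 numbers at 6 months (mean r 0.26) and 2 of 5 at 3 months (mean r 0.0066). With a replicate block, 250 miRNAs and 2 arms were called by age in WT mice. Blocked log2FC values with a changed sign were -0.28 for miR-296-5p by genotype at 3 months, 0.10 for miR-298-5p at 6 months, and 0.017 for miR-296-5p and 0.0018 for miR-298-5p in the interaction. miR-298-3p passed the filter in no comparison, and its ratio rests on 0 to 8 counts per library.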
